A study of Mus musculus with 2 samples.

Results

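The heat shock chaperones described here are 10 mouse genes, chosen by name: Hspa1a, Hspa1b, Hspa8, Hsph1, Dnajb1, Hspb1, Hsp90aa1, Bag3, Hspd1 and Hspe1. Probes were taken where the array's own gene name was 1 of these, which gave 14 of 55681 gene probes, for 9 of the 10 genes. Hspa1b was the name of none of the probes taken, and its own transcript is not analysed here. RNA labelled as coming from beta cells was compared between CSE knockout mice (CSE-KO) and wild-type controls (CSE-WT), with 1 single-colour Agilent array per genotype. Both genotypes were C57BL/6J, were 6 months old and had been fed a high-fat diet. CSE is cystathionine gamma-lyase, encoded by Cth, an enzyme that makes hydrogen sulfide. How the knockout allele was made, how many animals gave each sample, and whether the cells were sorted are not given in the sources used here.

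Heat shock chaperones bind unfolded stretches of other proteins and help them fold, refold or be degraded. In the cytosol, Hsp70 proteins work in cycles of ATP hydrolysis with J-domain partners that deliver substrates and exchange factors that release them, and Hsp90 takes over late folding steps. The transcription factor HSF1 induces many of these genes under proteotoxic stress through heat shock elements, inverted repeats of the unit GAA. In mitochondria, the Hsp60 and Hsp10 chaperonin folds imported proteins.

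The probe sequences are shown first for the members with the largest differences and for the constitutive Hsp70 gene, whose probes gave unequal values. They are printed 5′ to 3′ as the array file gives them, in lower case with no base marked, with probe positions on build mm9. The Hspa1a probe lies on the minus strand at chr17:35107117-35107176. The first 2 Hspa8 probes lie on the plus strand at chr9:40611142-40611201 and within chr9:40612755-40613050, the second one split over 296 bases of genome. The Hsph1 probe shown lies on the minus strand at chr5:150420110-150420169. The array file gives no exon or UTR annotation for them, and a genome of that build was not used here.
Hspa1a: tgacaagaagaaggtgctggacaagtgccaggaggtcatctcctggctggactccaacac
Hspa8 probe 1: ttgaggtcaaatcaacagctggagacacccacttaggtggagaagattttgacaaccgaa
Hspa8 probe 2: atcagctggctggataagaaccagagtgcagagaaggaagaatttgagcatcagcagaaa
Hsph1 probe 1: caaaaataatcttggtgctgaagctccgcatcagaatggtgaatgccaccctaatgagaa
Set against the 55680 other gene probes, the Hspa1a probe shared a run of at most 13 identical bases with any of them. Against 17 probes of other genes named Hspa followed by a number, the longest shared run was 11 bases, with Hspa1l, and it was 9 bases with Hspa8. Hspa1a and Hspa1b encode nearly identical proteins, so the Hspa1a probe may also bind Hspa1b transcripts, and this was not tested.

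Promoter sequence is shown because HSF1 acts at the promoters of these genes. RefSeq windows on build GRCm38.p6, from 250 bases before to 50 after an annotated start, matched 8 of the 10 genes by symbol, in 11 windows (no window for Hspa8 or Hsp90aa1). Heat shock elements were searched as GAANNTTC and TTCNNGAA, each of which is its own reverse complement, so both strands were covered. Their 3-unit forms, which add NNGAA to the first and NNTTC to the second, contain both shorter forms and were counted as well. An 8-base form was found for 7 of the 8 genes and in 15.1% of all 32851 windows. A 3-unit form was found for Hsph1, Hspd1 and Hspe1, and in 0.603% of all windows. For Dnajb1 these letters were not in either of its windows. A match describes the letters of the window and is not evidence of a bound site.

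The stretch upstream of Hspa1a, on the minus strand at chr17:34972157-34972406, is shown whole, with the match in capitals. It ends at the last base before the annotated start.
Hspa1a: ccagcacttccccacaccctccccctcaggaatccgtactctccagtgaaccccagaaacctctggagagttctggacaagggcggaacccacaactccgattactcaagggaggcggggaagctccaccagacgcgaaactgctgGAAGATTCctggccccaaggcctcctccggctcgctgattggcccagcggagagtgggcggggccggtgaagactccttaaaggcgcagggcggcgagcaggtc
The Hspa1b window differed from it at 4 of 300 bases, a 98.7% identity. Counted from 1 at the 5′ end of the window, with the Hspa1a base first, these were C44T, T47C, T249G and C276T. None of them lay in the match, which began 104 bases before the start in both genes. Stretches around matches of Hsph1, Hspb1 and Hspe1 are shown on each gene's own strand. Hsph1 had an 8-base match upstream of both of its annotated starts (minus strand, chr5:149636347-149636384) and a 3-unit match after them (chr5:149636280-149636309). The others are Hspb1 (plus strand, chr5:135887787-135887844) and Hspe1 (plus strand, chr1:55088044-55088091).
Hsph1 upstream: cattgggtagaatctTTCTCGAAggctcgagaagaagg
Hsph1 after the starts: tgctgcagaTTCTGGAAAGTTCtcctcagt
Hspb1: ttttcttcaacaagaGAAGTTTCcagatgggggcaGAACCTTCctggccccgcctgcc
Hspe1: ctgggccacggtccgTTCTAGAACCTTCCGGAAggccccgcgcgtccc
Hspd1 and Hspe1 are transcribed away from each other, and 1 of the 2 Hspd1 windows shares 285 bases with the Hspe1 window on the other strand. The match of Hspe1 is thus also that of Hspd1. The Bag3 window held GAAGTTTC at its last 8 bases, after the annotated start.

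With 1 array per genotype there is no replicate, so no test was possible and every difference describes these 2 samples. Differences are CSE-KO minus CSE-WT on the log2 scale, after each array was scaled to the 75th percentile of its gene probes. A fixed size of 2-fold took the place of a threshold. The spot SD given beside a difference comes from probes printed repeatedly on each array, 399 of them 10 times. Only those with at least 8 spots free of outlier flags, all well above background, were used. This SD covers scatter between the spots of a probe within an array, and is smaller for a probe printed more often. It says nothing about differences between arrays, animals or RNA preparations. Between different probes of the same gene the differences had a pooled SD of 0.30 over 6071 genes, and a median SD of 0.12. These SDs are not matched for level. A gene with 1 probe is thus less sure than its spot SD shows.

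The 75th percentile was 540 intensity units on the CSE-KO array and 519 on the CSE-WT array, and 22261 genes were well above background on both. Of these 357 differed by at least 2-fold, which is 1.6%, with 159 higher and 198 lower in CSE-KO (36 and 99 with normexp background correction). Of the 198 lower genes, 99 lay in patches, where the 12 nearest spots also differed between the arrays, against 4 of the 159 higher genes. Without probes in patches 157 genes were higher and 99 lower. Cth had 3.15 and 3.68 units by its 2 probes on the CSE-KO array, against 13.5 and 12.8 units on the CSE-WT array. Neither probe was well above background on either array, and where they lie relative to the deletion is not known here, so they do not check the labels. Of the islet cell markers, all 8 for beta cells, all 6 for other endocrine cells and all 8 for acinar cells were above background on both arrays. A transcript need therefore not come from beta cells, and in such bulk RNA fewer cells of a type and less RNA per cell cannot be told apart.

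All 14 chaperone probes were well above background on both arrays. Hspa1a, the stress-inducible Hsp70 gene, was the member that passed 2-fold, at 3.05-fold higher in CSE-KO, as 0.714% of all measured genes did in that direction. Its Hsp70 partners Hsph1 and Dnajb1 were higher by smaller amounts, and Hspb1 and the mitochondrial pair Hspd1 and Hspe1 were lower by small amounts. Of the 9 measured members 5 were higher and 4 lower, and 1 of 9 passed 2-fold in either direction, against 1.6% of all measured genes. By more than 3 times the spot SD, 3 members were higher and 2 lower, where 7.99% of all measured genes were higher and 8.96% lower. These shares are not matched for level. The array software gave a wider error for each spot, such as 1367 beside 13672 units for the brighter Hsph1 probe on the CSE-KO array. The counts by spot SD do not use that error. The median difference of the members was 0.05, against -0.01 over all measured genes, and it turned to -0.01 with normexp background correction.

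**Figure D1:**
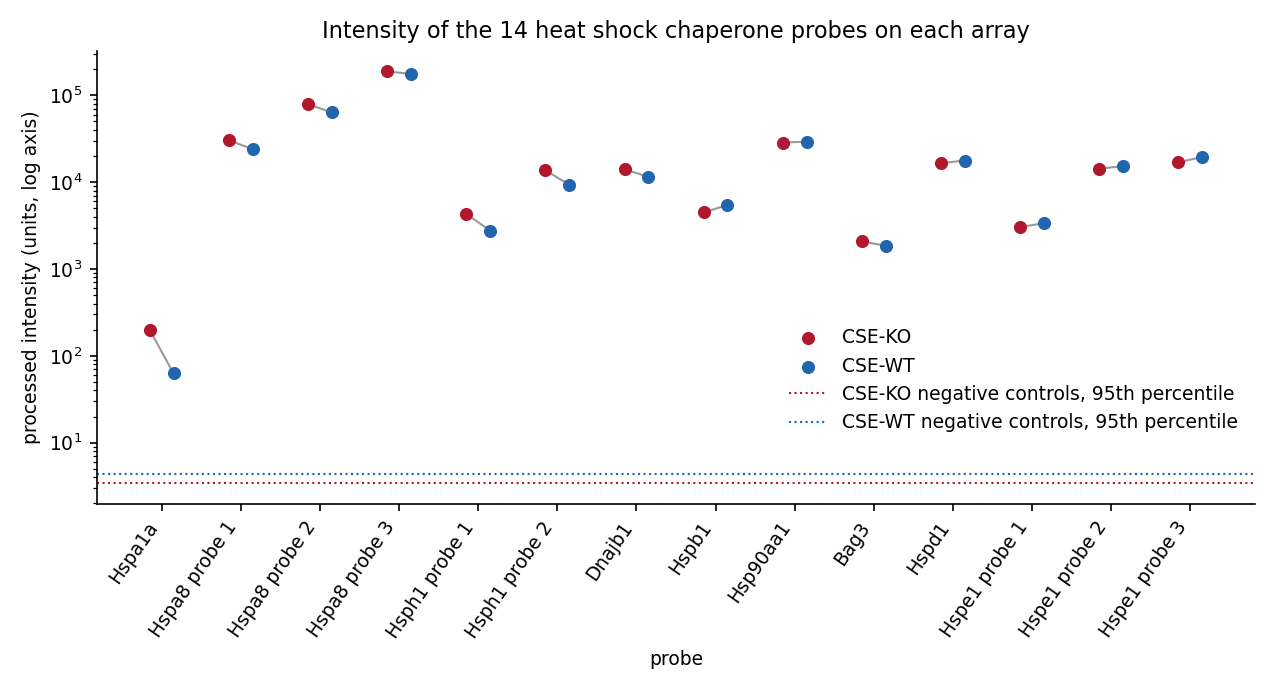
Processed intensity on a log axis of each of the 14 chaperone probes, with the CSE-KO array (red) left of the CSE-WT array (blue) and 1 point an array. Dotted lines mark the 95th percentile of 308 negative-control spots on each array. Levels of different probes are not comparable, and the steepest line is that of Hspa1a, with 199 units in CSE-KO and 62.6 in CSE-WT.

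The Hspa1a probe had 199 intensity units on the CSE-KO array, against 62.6 units on the CSE-WT array. Its difference was 1.61 log2 units with a spot SD of 0.20. Both values were above the negative controls, 57.8 times their 95th percentile on the CSE-KO array and 14.5 times on the CSE-WT array. These controls spread little, with medians of 3.11 and 3.86 units and 95th percentiles of 3.43 and 4.32. A Cth probe with 13.5 units on the CSE-WT array was not well above background, so the multiples overstate the margin. The Hspa1a probe was well above background on both arrays, so its signal was not a case of detection on 1 array only. The 12 spots nearest to this probe had a median difference of 0.07 after the trend with level was removed, so it did not lie in a patch. Among all measured genes it ranked 18 from the top by difference, and 0.0809% of genes were higher by as much. Among the 2312 genes within 0.5 log2 units of its mean level, 1.82% were at least 2-fold higher and 0.389% were higher by as much as Hspa1a.

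The size of the Hspa1a difference depended on how background was treated. With normexp correction of the mean spot signal and an added offset of 50 units, it was 1.01 and only just past 2-fold. Over the other 9 alternatives, all of which start from the processed signal or from the authors' deposited table, it lay between 1.56 and 1.67. Dropping the filter, averaging probes and dropping patches could not move it from 1.61, since its only probe was measured and outside patches. A single spot on each array carries this value.

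Hsph1 encodes the Hsp110 protein that acts as an exchange factor for Hsp70, and it was higher by both of its probes. The first probe had 4310 units on the CSE-KO array, against 2771 units on the CSE-WT array. That is a difference of 0.58 log2 units with a spot SD of 0.06. The second probe, nearer the 3′ end at chr5:150419744-150419803, had 13672 units on the CSE-KO array, against 9344 units on the CSE-WT array. That is 1.41-fold, or 0.49 log2 units with a spot SD of 0.05. The probes do not overlap, and their differences lay 0.09 apart. Of all measured genes, 8.06% had a larger absolute difference than the second, brighter probe.

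Dnajb1, a J-domain protein that stimulates the Hsp70 ATPase, had 14064 units on the CSE-KO array, against 11506 units on the CSE-WT array. Its 1 probe, on the plus strand at chr8:86135660-86135719, gave 0.23 log2 units (1.18-fold) with a spot SD of 0.05. This exceeded 3 times its spot SD and the median SD of 0.12 between probes of a gene, but not the pooled SD of 0.30. Bag3, which links Hsp70 to small heat shock proteins and to autophagy, had 2071 units on the CSE-KO array, against 1854 units on the CSE-WT array. Its difference of 0.10 was under 3 times its spot SD of 0.07.

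Hspa8 encodes the constitutive Hsp70 protein of the cytosol, and its 3 probes did not give the same difference. Probe 1, the most upstream, had 30317 units on the CSE-KO array, against 23901 units on the CSE-WT array. Probe 2 had 78754 units on the CSE-KO array, against 63523 units on the CSE-WT array. Probe 3, the most downstream, at chr9:40613223-40613282, had 188515 units on the CSE-KO array, against 175502 units on the CSE-WT array. The differences were 0.29, 0.25 and 0.05 log2 units in that order, each with a spot SD of 0.06. All 3 probes were thus higher in CSE-KO, the first 2 past 3 times the spot SD and the brightest one within 1. The brightest probe stands for the gene in the counts above, and its sign turned with normexp correction (-0.01). The mean over the 3 probes was 0.20. No spot on either array was saturated.

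**Figure D2:**
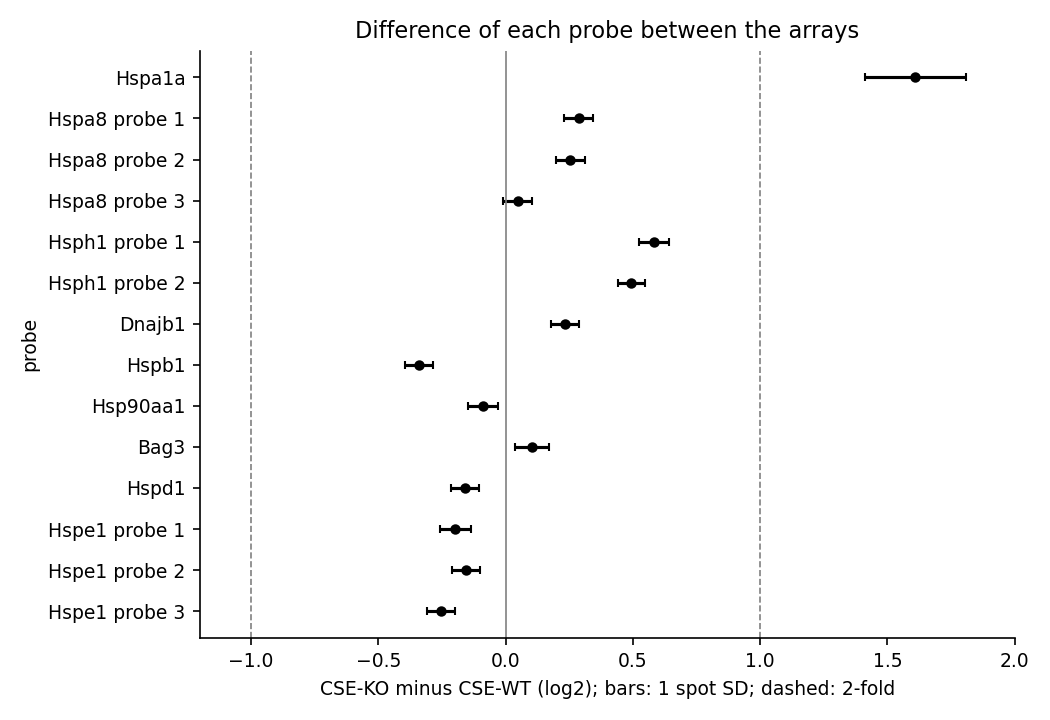
Difference of each chaperone probe, CSE-KO minus CSE-WT, on the log2 scale, with bars of 1 spot SD on either side. Dashed lines mark 2-fold. Hspa1a lies at 1.61, both Hsph1 probes near 0.5, and the 3 Hspe1 probes between -0.25 and -0.16.

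Hsp90aa1, the inducible form of cytosolic Hsp90, had 28535 units on the CSE-KO array, against 29215 units on the CSE-WT array. Its probe, on the minus strand at chr12:111929248-111929307, gave a difference of -0.09 with a spot SD of 0.06. Of all measured genes, 63.6% had a larger absolute difference. Hspb1, the small heat shock protein known in mouse as Hsp25, had 4473 units on the CSE-KO array, against 5453 units on the CSE-WT array. Its probe lies on the plus strand at chr5:136365366-136365425, and its difference was -0.34, or 1.27-fold lower in CSE-KO, with a spot SD of 0.05. It was the lowest of the measured members, and 15.3% of all measured genes had a larger absolute difference.

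Hspe1 and Hspd1 encode the Hsp10 and Hsp60 subunits of the mitochondrial chaperonin, and all 4 of their probes were lower in CSE-KO. Probe 1 of Hspe1 had 3042 units on the CSE-KO array, against 3357 units on the CSE-WT array. Probe 2 had 14251 units on the CSE-KO array, against 15284 units on the CSE-WT array. Probe 3 had 16940 units on the CSE-KO array, against 19438 units on the CSE-WT array. The differences were -0.20, -0.16 and -0.25, with spot SDs of 0.06, 0.05 and 0.06. Probes 2 and 3 overlap at 57 bases of the genome, so they are not separate measurements of the transcript. Hspd1 had 16489 units on the CSE-KO array, against 17718 units on the CSE-WT array, by 1 probe on the minus strand at chr1:55134697-55134756. Its difference was -0.16 with a spot SD of 0.06. The 12 spots nearest to it had a median difference of -0.37, so its probe lay in a patch, and the part of that patch in the value was not tested.

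**Figure D3:**
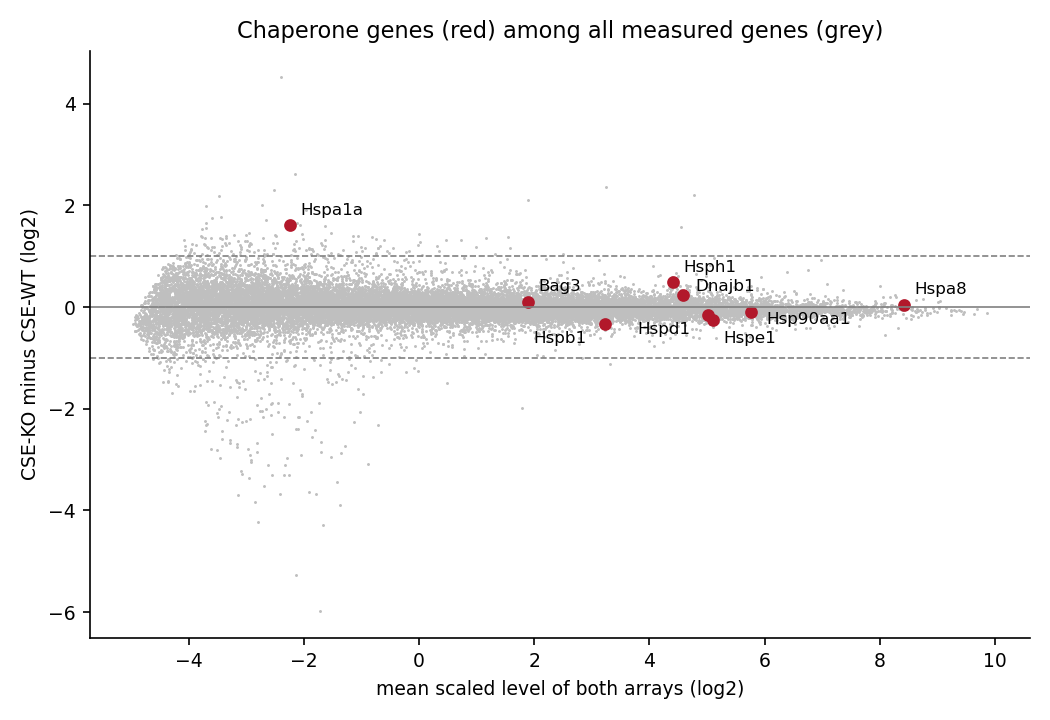
Difference against mean scaled level, both on the log2 scale, of all 22261 measured genes (grey) and the 9 chaperone genes (red), 1 point a gene. Dashed lines mark 2-fold. Hspa1a lies among the dimmer genes, where differences spread more widely, and the other 8 members lie within 2-fold at higher levels.

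Past 2-fold differences were rarer among bright genes. Of the 6870 genes at or above the level of Bag3, the dimmest of the other 8 members, 0.0873% differed by at least 2-fold. The 0 of 8 members past 2-fold there stand beside that share.

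The other genes of the same chaperone systems were described from lists chosen with earlier results of these data known, so their counts and medians carry no test. None of their members in the cytosolic, mitochondrial and endoplasmic reticulum lists reached 2-fold. Over all measured genes 48.7% were higher and the median was -0.01.

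Among further Hsp70 family genes, 9 of 10 were lower in CSE-KO, with a median of -0.18 that stayed below 0 under all 10 alternatives. By more than 3 times the spot SD, 4 were lower and 1 higher, where 8.96% of all measured genes were lower and 7.99% higher. The mitochondrial Hsp70 gene Hspa9 had 4485 units on the CSE-KO array, against 5000 units on the CSE-WT array, a difference of -0.21. The testis-enriched Hspa1l was dim, with 44.8 units on the CSE-KO array, against 50.5 units on the CSE-WT array, and differed by less than its spot SD. Hspa12a differed by -0.70, with a probe in a patch. The exception was Hyou1, an Hsp70 relative of the endoplasmic reticulum, which was 1.21-fold higher.

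Of the J-domain co-chaperones, 36 of 37 were measured and 13 were higher. Their median was -0.04, and its sign turned under 1 of the 10 alternatives. Dnaja1, a cytosolic J-domain partner of Hsp70, had 27204 units on the CSE-KO array, against 19956 units on the CSE-WT array, and was 1.31-fold higher. Its 2 probes gave 0.39 and 0.41. The synaptic vesicle co-chaperone Dnajc5 was higher by 0.30 with its brightest probe and differed by -0.01 with another. Hscb, which acts in mitochondrial iron-sulfur cluster assembly, differed by -0.34, and Dnajc6, a neuronal partner in clathrin uncoating, by -0.87 at a low level.

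Hsp90 co-chaperones were mixed, with 7 of 22 measured genes higher and a median of -0.02 whose sign turned under 5 alternatives. Stip1, the adaptor that joins Hsp70 to Hsp90, had 3396 units on the CSE-KO array, against 2278 units on the CSE-WT array, a difference of 0.52. Chordc1, an Hsp90-binding protein, had 3186 units on the CSE-KO array, against 2060 units on the CSE-WT array, a difference of 0.57. The constitutive Hsp90 gene Hsp90ab1 had 70412 units on the CSE-KO array, against 67942 units on the CSE-WT array, and differed by -0.00 after scaling. The phosphatase gene Ppp5c (-0.22) and the immunophilin gene Fkbp5 (-0.19) were lower past 3 times the spot SD.

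Of the small heat shock proteins other than Hspb1, 7 of 10 were measured and 4 were higher. Hspb8, a partner of Bag3, had 1966 units on the CSE-KO array, against 1089 units on the CSE-WT array, and was 1.74-fold higher. Hspb2 differed by 0.62, under 3 times its spot SD of 0.23, and Cryaa by 0.34 with a spot SD of 0.31. The lens and muscle chaperone gene Cryab differed by -0.14 with its brightest probe and by 0.48 with its other. The median of this list was 0.06, and 0.17 when the probes of a gene were averaged.

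The heat shock factor genes differed little. Hsf1 had 2084 units on the CSE-KO array, against 1902 units on the CSE-WT array, a difference of 0.08 with a spot SD of 0.07. Hsf2 differed by 0.12, Hsf4 by -0.22 and the HSF1-binding gene Hsbp1 by -0.05, each within 3 times its spot SD. A further list of 28 genes was drawn up around HSF1 targets but is mixed, since it holds genes such as Rbm3, an RNA-binding protein gene known for its induction by cold. Of these 28 genes 16 were higher and the median was 0.03. Past 3 times the spot SD were 6 of the higher genes and 2 of the lower ones, Hspa4l (-0.20) and Mthfd2 (-0.19). Besides Hspb8, Chordc1, Stip1 and Dnaja1, these 6 were Gadd45b (0.68), a stress-response gene, and Rbm3 (0.66 and 0.65 by its 2 probes).

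**Figure D4:**
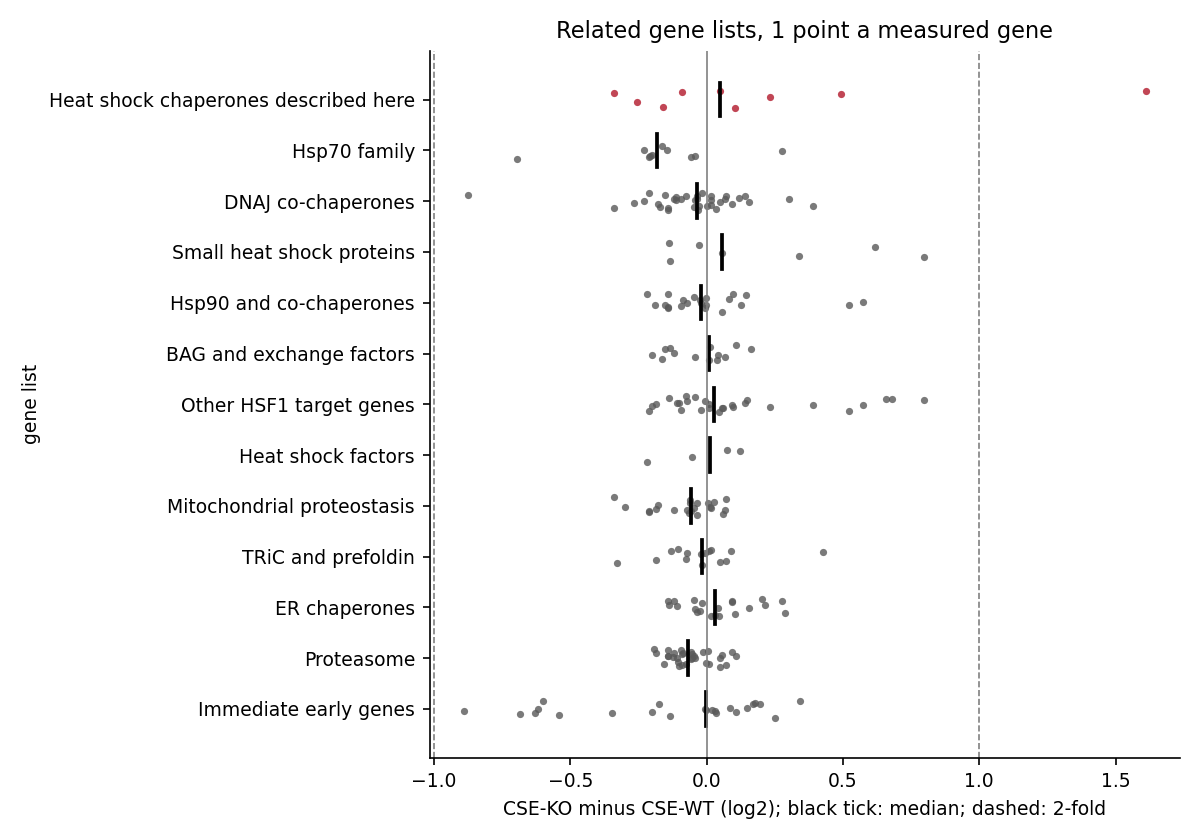
Difference of each measured gene, CSE-KO minus CSE-WT on the log2 scale, for the chaperone genes described here (red) and 12 related lists (dark grey), 1 point a gene. Black ticks mark medians, which lie between -0.18 and 0.06, and dashed lines mark 2-fold. Hspa1a lies apart from every other gene shown, and some genes stand in more than 1 list.

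Genes of mitochondrial protein quality control were lower in 15 of 22, with a median of -0.06 that kept its sign under all 10 alternatives. By more than 3 times the spot SD, 5 were lower and 1 higher, where 8.96% of all measured genes were lower and 7.99% higher. The 5 were the inner-membrane protease subunit gene Afg3l2 (-0.30), the J-domain gene Dnajc15 (-0.21), the prohibitin gene Phb (-0.18), and Hspa9 and Hscb named above. The higher one was Grpel1, an exchange factor for mitochondrial Hsp70, at 0.07 with a spot SD of 0.02. Its probe was printed more than once, which lowers that SD. The median absolute difference over all measured genes was 0.13. The cytosolic chaperonin TRiC and prefoldin had 6 of 15 measured genes higher and a median of -0.02, whose sign turned under 2 alternatives. Within it the prefoldin subunit Pfdn4 differed by -0.33, Vbp1 by -0.19, Pfdn2 by -0.13, and the testis form Cct6b by 0.43 with a spot SD of 0.17. Of the BAG and other exchange factor genes 7 of 13 were higher, with a median of 0.01 whose sign turned under 3 alternatives. Stub1, a ubiquitin ligase that acts with Hsp70, was 1.12-fold higher, while the Hsp110 relatives Hspa4l and Hspa4 differed by -0.20 and -0.16, and Bag4 by -0.15 with a probe in a patch.

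Chaperones of the endoplasmic reticulum were higher in 12 of 21, with a median of 0.03. Of them 4 passed 3 times the spot SD, all higher, where 7.99% of all measured genes were higher and 8.96% lower. These 4 were Pdia4 (0.29), a disulfide isomerase, Hyou1 (0.28), Sdf2l1 (0.21), a partner of BiP, and Creld2 (0.20). Hspa5, which encodes BiP itself, differed by 0.03 with a spot SD of 0.06. Proteasome genes were lower in 24 of 32, each by a small amount, with a median of -0.07 that kept its sign under all 10 alternatives. One of them, the core subunit gene Psma1 (-0.19), passed 3 times the spot SD. Psmd14 differed by -0.19, Nfe2l1, which encodes a regulator of proteasome genes, by -0.15, and Psmb5 by -0.14 or by 0.00 with its other probe.

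Markers of other cells differed between the same arrays. Macrophage markers were higher in 8 of 8, with a summed intensity of 18970 units on the CSE-KO array and 14194 units on the CSE-WT array. They were led by Itgax (0.89), Fcer1g (0.62), C1qc (0.54) and C1qa (0.45). Of 5 stellate and fibroblast markers listed, the 4 measured were all higher, with summed intensities of 925 units on the CSE-KO array and 534 units on the CSE-WT array. Col3a1 differed by 1.04, Dcn by 0.99, Col1a1 by 0.84 and Pdgfrb by 0.32. Beta cell markers were higher in 4 of 8 with a median of -0.01, and Ins1 differed by -0.12, Ins2 by -0.06, Iapp by -0.16, Pdx1 by -0.21 and Mafa by 0.11. Acinar markers were higher in 4 of 8, with Ctrb1 at 0.46, Amy2a5 at -0.42, Cela1 at -0.21 and Ptf1a, in a patch, at -2.24. Other endocrine markers were higher in 1 of 6, with Ghrl at 1.33, Irx2 at -0.62 and Gcg at -0.14. Of 4 ductal markers listed, the 2 measured were higher, Spp1 by 0.53 and the dim Krt19 by 0.23 with a spot SD of 0.31. Of 4 endothelial markers 3 were higher, up to 0.13 with Cdh5, and 0 passed 3 times the spot SD. The part of these cells in the difference of Hspa1a, Hsph1 or any other chaperone gene was not tested.

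**Figure D5:**
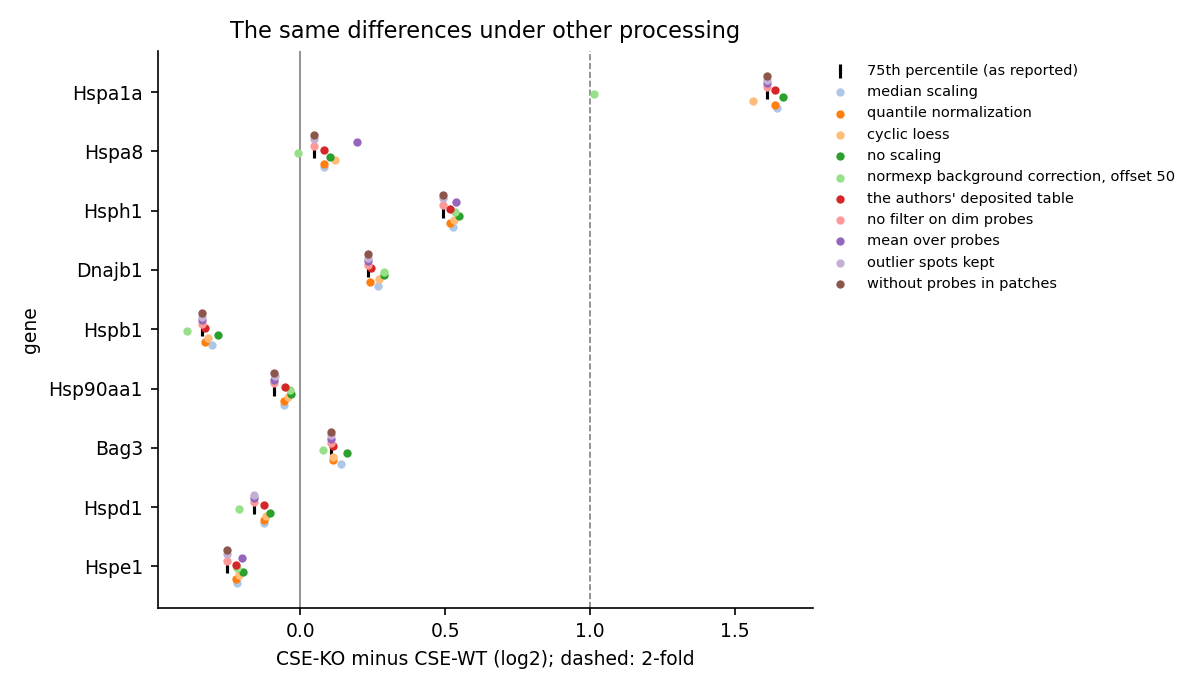
Difference of each chaperone gene, CSE-KO minus CSE-WT on the log2 scale, as reported (black tick) and under each of 10 other ways of processing (coloured points). The dashed line marks 2-fold. Hspa1a lies between 1.01 and 1.67 over the alternatives, and Hspa8 is the one gene whose points fall on both sides of 0.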

How the data were processed

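The authors deposited a detrended fluorescence intensity per spot from Agilent Feature Extraction, version 10.7.1.1 per the file headers and 9.5.1.1 per the submitters' processing notes. They also deposited a table of probe intensities, used as an alternative, with its normalization unstated. Both of its columns had a median of 37.6 units on a linear scale, and across 55678 probes each followed its own array more closely than the other (Pearson r of log2 values 0.9999, against 0.986 and 0.985). From the spot intensities the log2 was taken, spots of a probe were averaged without outlier flags (169 gene spots on the CSE-KO array and 139 on the CSE-WT array), and the 75th percentile was subtracted. A probe counted as measured when well above background on both arrays, and a gene took its brightest measured probe. Names of 27235 probes came from RefSeq by accession and 28446 from the array file. Named genes are all members, and in each list up to 4 with the largest absolute difference plus Hsf1, Hspa5, Hsp90ab1, Hspa9, Ins1, Ins2, Gcg and Amy2a5; Cth was named as the deleted gene, and Fosl2, Fosb, Jund, Nr4a2, Mthfd2, Phb and Grpel1 were chosen after their values were seen. One marker gene that the rule names is not reported here. The members and lists were chosen with earlier results of these data known. The 10 alternatives were median scaling, quantile normalization, cyclic loess, no scaling, normexp background correction, the authors' deposited table, no filter on dim probes, the mean over probes, outlier spots kept, and removal of probes in patches (the 12 spots nearest to any of its spots with a median difference past 0.3 log2 units after the trend with level was removed). The gene step was tested on simulated data. Python 3.11.15, limma 3.58.1 and R 4.3.3 were used; the number of arrays limits the precision.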

Additional observations from a re-analysis of the deposited data

How the results depend on the processing

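The 9 chaperone genes were recomputed under 10 alternatives, 89 values in all since Hspd1 has no probe outside patches. The number past 2-fold was 1 under each alternative, and 1 of the 89 values changed sign, that of Hspa8 with normexp correction (-0.01). In 81 values the shift was under 1 spot SD, but these include values that could not shift. Averaging probes cannot change a gene with 1 probe. Dropping the filter or the patches left the chosen probe of each remaining gene in place, and keeping outlier spots changed only the scaling. Over the alternatives Hsph1 lay between 0.49 and 0.55, Dnajb1 between 0.23 and 0.29, Hspb1 between -0.39 and -0.29, Hspd1 between -0.21 and -0.10 and Hspe1 between -0.25 and -0.20. With normexp correction the genes past 2-fold numbered 135, and with no filter on dim probes 2589, against 357; the second count includes probes at background. List medians that moved by more than a spot SD were those of stellate markers (0.52 with normexp, against 0.91), ductal markers (0.26 with normexp and 0.18 without the filter, against 0.38), small heat shock proteins (0.17 with probes averaged, against 0.06) and other endocrine markers (-0.0224 with quantile normalization, -0.0238 in the authors' deposited table and -0.38 without patches, against -0.13). The causes were not tested. No paired analysis was possible because each genotype has 1 array, and for the same reason no replicate could be left out. The limits are single spots on single arrays, the unknown number of animals, and for Hspa1a a dim probe that may also read Hspa1b.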

Other observations

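Immediate early genes encode transcription factors and regulators that cells induce within minutes of a stimulus. Of 23 measured, 11 were higher and 12 lower in CSE-KO. Of the lower ones 6 passed 3 times the spot SD, where 8.96% of all measured genes were lower and 7.99% higher. These shares are not matched for level. Egr1 had 450 intensity units on the CSE-KO array, against 803 units on the CSE-WT array, a difference of -0.89. Nr4a1, an orphan nuclear receptor, had 7968 units on the CSE-KO array, against 12331 units on the CSE-WT array, a difference of -0.69. Fosl2 differed by -0.60, Socs3, a feedback inhibitor of cytokine signalling, by -0.63, and Nr4a2 (-0.35) and Fos (-0.62), both with probes in patches, were lower too. Fosb (0.34) and Jund (0.18) were higher by more than 3 times the spot SD. The median of the list was -0.00, and its sign turned under 6 alternatives.

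A probe outside the member names, for an expressed sequence tag that the array file describes as similar to rat hsp60, had 17276 units on the CSE-KO array, against 19747 units on the CSE-WT array. Its difference of -0.25, with a spot SD of 0.06, had the same sign as those of Hspd1 and Hspe1, and it lay outside patches. It was picked by its description.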
